A study of Drosophila melanogaster with 4 samples.

Results

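The fourth chromosome of Drosophila melanogaster is a small autosome whose genes lie in chromatin with many features of heterochromatin. Its genes are nevertheless transcribed, and the protein encoded by Pof binds their transcribed bodies together with heterochromatin protein 1a and the histone H3 lysine 9 methyltransferase eggless (egg). The chromosome carries regulators known from the eye, wing and nervous system beside housekeeping genes.

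The genes described here were those that the exon-count table places on chromosome 4, leaving out 10 genes by name (apolpp, ci, bt, pho, dpr7, Crk, PlexA, PlexB, ATPsynbeta and RpS3A) and 23 long noncoding or antisense RNA genes. This choice used position and name and no measured value, but it was made with earlier results of these data known. It gave 76 of the 109 genes on the chromosome and of the 17494 genes in the table. They comprised 69 protein-coding genes, 6 pseudogenes and 1 snoRNA gene, lying between positions 879 and 1271759 of chromosome 4 (dm6).

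RNA-seq was performed on myoblasts of the wing imaginal disc, the precursors of the flight muscles, at 0 hours after puparium formation (APF) and 29°C. In Antp RNAi the driver Mef2-Gal4 expressed a nuclear GFP (UAS-GFPnls) and a hairpin against the Hox gene Antennapedia, with 2 libraries numbered replicates 1 and 2. In the control the same driver and GFP were combined with a hairpin against the pigment gene yellow (written UAS-Y RNAi in the labels, where the libraries are titled WT), with 2 libraries numbered replicates 2 and 3. Both groups therefore carried the driver, GFP and a hairpin, another label field names a different GFP transgene, and only 1 Antp hairpin line was sequenced. The driver acts in muscle-lineage cells, so the disc epithelium is not its target, and the cells were sorted by GFP from pooled discs. The labels call the replicates biological whereas the study's methods call them technical, so p-values measure only the spread between these libraries.

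The libraries held between 42110502 and 53957914 counts. Antp, the targeted gene, was at 135 and 144 counts per 1000000 counts of a library (CPM) in Antp RNAi, against 192 and 172 CPM in the control. The log2 fold change of Antp was -0.38 ± 0.11 (SE), which did not pass the test (adjusted p = 0.145, edgeR quasi-likelihood test with Benjamini-Hochberg adjustment). The yellow gene had 382 and 365 counts in Antp RNAi and 0 counts in both control libraries. The groups also differed in the gene white (w), at 2139 and 2308 CPM in Antp RNAi and 283 and 281 CPM in the control. Its log2 fold change was 2.98 ± 0.10 (adjusted p = 7.6e-06, edgeR), and the source of this difference was not tested. The 10 defining myoblast markers summed to 14778 and 12958 CPM in Antp RNAi, against 14209 and 12553 CPM in the control. These sums came mostly from E(spl)m6-BFM, Him and twi, and 5 of the 10 had fold changes above 0. Of the called members, ct was lower, at 158 and 130 CPM in Antp RNAi and 263 and 261 CPM in the control. The other, sns, was higher, at 43.7 and 37.5 CPM in Antp RNAi and 23.3 and 20.8 CPM in the control. Other cell types were represented to different degrees: 7 disc epithelium markers summed to 926 and 818 CPM in Antp RNAi and to 994 and 1098 CPM in the control, mostly from shg and ap, with Fas3 the called member and higher, at 16.1 and 12.8 CPM in Antp RNAi and 6.34 and 6.02 CPM in the control, whereas 5 fat body markers summed to at most 0.212 CPM in Antp RNAi and 0.282 CPM in the control, with Lsp2 and Fbp1 at 0. The 10 hemocyte markers summed to 8061 and 8062 CPM in Antp RNAi and to 7574 and 7795 CPM in the control, mostly from Ppn. Of the 7 tested, 3 had fold changes above 0. Hml, eater and He had at most 10 counts in any library and srp at most 43. The markers vkg, Col4a1 and crq were at 39 CPM or more in every library. The called members of that list were lower: Pxn was at 6.98 and 5.70 CPM in Antp RNAi and 170 and 151 CPM in the control and NimC1 had 1 and 1 counts in Antp RNAi and 44 and 45 in the control. The part of these cells in the results on chromosome 4 was not tested. Differences between replicates exceeded sampling noise in both groups, and more so in Antp RNAi. Over the tested genes, the chi-square per degree of freedom was 63.2 between the Antp RNAi libraries and 16.4 between the control libraries. Between an Antp RNAi and a control library it ran between 61.9 and 84.3. In such bulk samples, fewer cells of a type and less RNA per cell cannot be told apart.

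The fourth chromosome genes were mostly expressed in these myoblasts. Of the 76 genes, 68 passed the filter on low counts (89.5%), against 10360 of 17494 genes overall (59.2%). The remaining 8 genes were 5 pseudogenes, the snoRNA gene and the protein-coding genes JYalpha and CG32006, and none of them had more than 8 counts in any library. None of the 76 genes was at 0 in all 4 libraries. A mean of at least 10 CPM was reached by 44 genes and a mean of at least 100 CPM by 27 genes. Per kilobase of exon, the median level of the tested genes was 12.7 CPM, against 13.7 CPM for all genes tested, so that the typical gene of this chromosome was at about the level of the typical gene elsewhere.

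To ask whether the chromosome shifted as a block, the fold changes of the 68 tested genes were set beside those of all genes. The median log2 fold change (Antp RNAi relative to control) was 0.06 (quartiles -0.02 and 0.22) on chromosome 4, against -0.01 (quartiles -0.17 and 0.12) over all 10360 genes. The other arms had medians of -0.02 (2L), -0.01 (2R), -0.01 (3L), -0.02 (3R) and 0.01 (X). Fold changes were above 0 for 43 genes and below 0 for 25, so 63.2% were above 0, against 47.5% of all genes tested. Among the 44 genes with at least 10 CPM, 37 had a log2 fold change between -0.25 and 0.25.

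**Figure D1:**
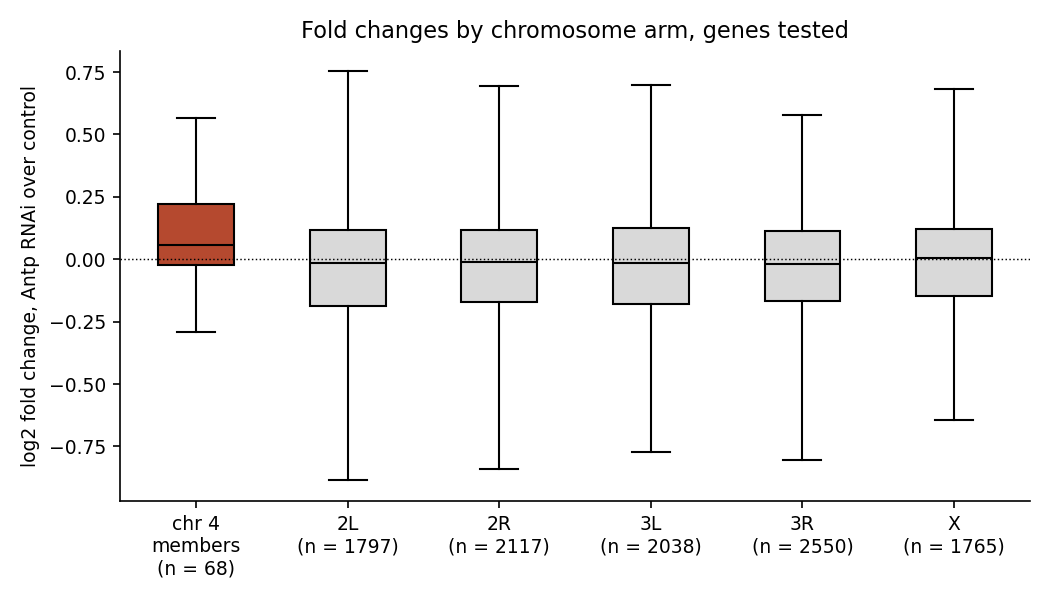
Log2 fold changes, Antp RNAi relative to control (y axis), for the tested chromosome 4 genes and for the tested genes of each large chromosome arm (x axis). Boxes span the quartiles with the median as a line, and whiskers run between the 5th and 95th percentiles. The fourth chromosome box has its median at 0.06 and overlaps the boxes of the other arms, with medians between -0.02 and 0.01.

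The chromosome's share of each library gave the same picture with 1 value per library. The 76 genes took 0.863% and 0.799% of all counts in Antp RNAi, against 0.731% and 0.809% in the control. The groups overlapped, because control replicate 3 lay above Antp RNAi replicate 2. The means were 0.831% ± 0.0451 in Antp RNAi and 0.770% ± 0.0551 in the control (SD, n = 2 each), a log2 ratio of 0.11 that was not separated by the exact permutation test (two-sided p = 0.667, where 0.333 is the smallest p that 2 libraries against 2 allow). The median log2 fold change also depended on single libraries. It was 0.02 without Antp RNAi replicate 1, 0.15 without Antp RNAi replicate 2, 0.03 without control replicate 2 and 0.13 without control replicate 3.

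Few single genes passed the test, both on chromosome 4 and over all genes tested. At an adjusted p under 0.001, none of the 68 chromosome 4 genes was called, where 0.463% of all tested genes were (48 of 10360, edgeR), and DESeq2 called 1 of them, where it called 2.28% of all genes. At an adjusted p under 0.05, 1 of the 68 genes was called, beside 2.58% of all tested genes (267 of 10360). This gene was higher in Antp RNAi, as were 1.36% of all tested genes by the same call, while 1.22% of all tested genes and none of the 68 were lower. An unadjusted p under 0.05 was reached by 7 genes (10.3%), against 11.5% of all genes. The 2 libraries of Antp RNAi lay entirely above or below those of the control for 21 genes (30.9%), against 40.6% of all genes. Fits without 1 library changed some calls at an adjusted p under 0.05 (edgeR), but each such fit leaves 1 library in a group. Antp RNAi replicate 2 had 0 counts of Actbeta, so the Actbeta call that rests on this library alone measures no size. Without Antp RNAi replicate 1, Actbeta, Mitf, eIF4G1 and onecut were called beside Sox102F (5 genes, 7.35%, against 8.64% of all genes), and without Antp RNAi replicate 2, CG31999, Thd1, anne, eIF4G1, gw and zfh2 were (7 genes with Sox102F, 10.3%, against 13.8%). Without control replicate 2, onecut was called beside Sox102F, and without control replicate 3, zfh2 was (2 genes and 2.94% in each, against 2.84% and 3.04% of all genes).

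**Figure D2:**
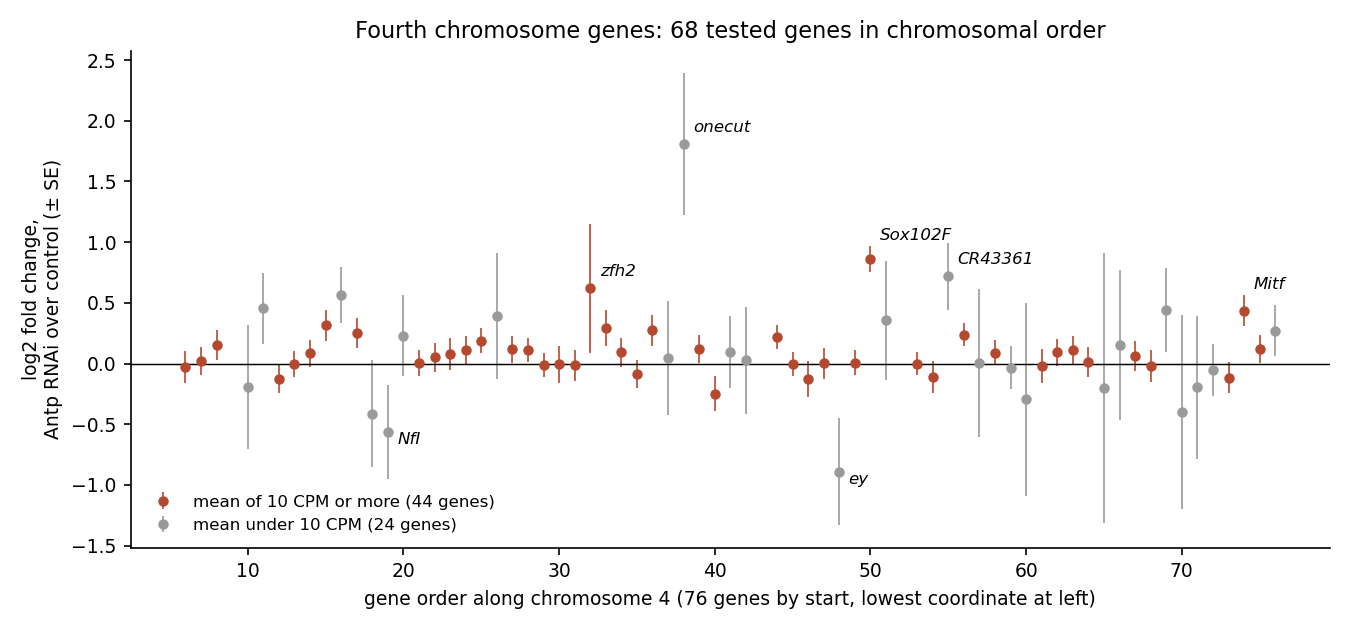
Log2 fold change, Antp RNAi relative to control, with its standard error (y axis) for the 68 tested chromosome 4 genes in their order along the chromosome (x axis, lowest coordinate at left), coloured by whether the mean level was at least 10 CPM. Most well expressed genes lie near 0, and Sox102F, at 0.86, is the only one called at an adjusted p under 0.05.

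Sox102F, which encodes an HMG-box transcription factor of the SoxD family, was the 1 of the 68 tested genes called at an adjusted p under 0.05. Of the genes left out by name, apolpp, the apolipophorin precursor gene, was also called, at 26.4 and 12.3 CPM in Antp RNAi, against 0.414 and 0.771 CPM in the control (log2 fold change 5.02 ± 0.44, adjusted p = 0.00081, edgeR). Sox102F lies on the minus strand of chromosome 4 at 800436 to 834393 (dm6, FBgn0039938), and its exons share no base with another gene. It had 221 and 208 CPM in Antp RNAi (9383 and 9562 counts), against 111 and 125 CPM in the control (5896 and 6827 counts). Both Antp RNAi libraries thus lay well above both control libraries. The log2 fold change was 0.86 ± 0.11 (SE), a 1.82-fold higher level (adjusted p = 0.005, edgeR). This call at an adjusted p under 0.05 held in each alternative fit, leaving out any 1 library included, with log2 fold changes of 0.82 to 0.92. None of the genes beside it was called: MED26, a Mediator subunit, had a log2 fold change of 0.01 ± 0.10, the forkhead gene fd102C 0.36 ± 0.49 and the translational regulator gene Gyf -0.00 ± 0.10.

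The 15 transcription regulators among the 76 genes, Sox102F included and ci and pho left out by name, had 10 fold changes above 0 and 5 below 0. Their median log2 fold change was 0.15, against -0.01 over all genes tested. This median was the value of sv (0.15 ± 0.62), a gene of few counts, and so measures no shared rise. The genes sv, ey, toy, NfI, fd102C, dati and onecut were each at no more than 2.48 CPM in any library. Mitf, a bHLH-leucine zipper factor that controls lysosomal genes, had 25.8 and 27.6 CPM in Antp RNAi, against 19.5 and 20.0 CPM in the control. Its groups did not overlap, but its log2 fold change of 0.43 ± 0.13 did not pass (adjusted p = 0.163, edgeR). onecut, a cut-domain homeobox gene best known from neurons, had 1.32 and 2.48 CPM (56 and 114 counts) in Antp RNAi and 0.828 and 0.257 CPM (44 and 14 counts) in the control. This was the largest log2 fold change among the 68 tested genes, 1.81 ± 0.58, at a level where the replicates of each group themselves differed widely, and it did not pass (adjusted p = 0.217, edgeR). The Wnt effectors pan (the TCF factor) and lgs (the Bcl9 homologue) were well expressed and had log2 fold changes of -0.03 and 0.12. Hcf, a chromatin cofactor, was at 406 and 399 CPM in Antp RNAi and 335 and 373 CPM in the control (0.19 ± 0.10). bip2, a TFIID subunit, had a log2 fold change of -0.01.

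Several of the developmental regulators for which the chromosome is known were close to silent. The Pax6 genes ey and toy, which specify the eye, stood at 0.566 and 0.435 CPM (ey) and 0.212 and 0.109 CPM (toy) in Antp RNAi, against 0.828 and 1.03 CPM (ey) and 0.301 and 0.0918 CPM (toy) in the control. The control libraries lay above those of Antp RNAi for ey and overlapped them for toy, and neither log2 fold change (-0.89 ± 0.44 and -0.29 ± 0.80) passed the test. sv, a Pax2 gene of sensory organs, had between 11 and 26 counts per library, and NfI, a nuclear factor I gene, had 35 and 33 counts in Antp RNAi and 59 and 64 in the control (log2 fold change -0.57 ± 0.39, adjusted p = 0.701, edgeR). zfh2, a zinc finger homeodomain gene expressed in the wing hinge, varied most between replicates among genes of at least 10 CPM. It was at 22.0 and 5.44 CPM in Antp RNAi and at 6.74 and 11.0 CPM in the control, so the groups overlapped and its log2 fold change of 0.62 ± 0.53 became -0.71 without Antp RNAi replicate 1. Its counts are uncertain because 18.7% of its exon bases are shared with Thd1 on the opposite strand.

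The 3 TGF-beta superfamily ligands of the chromosome differed in level. myo (myoglianin, the homologue of myostatin and GDF11) was the highest per kilobase of exon, at 56.6 and 47.2 CPM in Antp RNAi and 48.6 and 55.2 CPM in the control, and the groups overlapped with a log2 fold change of 0.00 ± 0.13. mav (maverick) had 21.9 and 17.9 CPM in Antp RNAi, below the 23.7 and 23.6 CPM of the control, at a log2 fold change of -0.25 ± 0.15 that did not pass (adjusted p = 0.629, edgeR). Actbeta, an activin best known from neurons, had 23 and 0 counts in Antp RNAi and 20 and 13 counts in the control. The 0 in Antp RNAi replicate 2 allows up to 0.0652 CPM, the level of 3 counts in that library.

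The 10 genes of the synapse, guidance and receptor group included several that were well expressed in these muscle precursors. Fold changes were above 0 for 8 and below 0 for 2 0, none was called, and the median log2 fold change was 0.09. Ephrin, the membrane-bound ligand, had 89.8 and 82.6 CPM in Antp RNAi, against 64.0 and 78.3 CPM in the control, and the groups did not overlap (log2 fold change 0.28 ± 0.13, adjusted p = 0.470, edgeR). Its receptor Eph overlapped between groups, at 191 and 186 CPM in Antp RNAi and 159 and 188 CPM in the control (0.12 ± 0.11). unc-13, which primes synaptic vesicles, reached 293 and 242 CPM in Antp RNAi and 268 and 309 CPM in the control, but a pseudogene and antisense genes lie over its exons. Cals (calsyntenin) and Slip1 had log2 fold changes of 0.06 and -0.01, and the glutamate receptor subunit gene CG11155 was low, at 1.65 and 1.48 CPM in Antp RNAi and 1.24 and 1.06 CPM in the control (0.44 ± 0.35).

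The highest levels per kilobase of exon belonged to housekeeping genes. gw, the GW182 protein through which microRNA-bound Argonaute silences its targets, was first of the 76 genes, at 160 CPM per kilobase in Antp RNAi and 138 in the control. Its levels were 1250 and 1126 CPM in Antp RNAi, against 1006 and 1036 CPM in the control. eIF4G1, the scaffold of the cap-binding complex in translation, had 920 and 918 CPM in Antp RNAi, against 755 and 804 CPM in the control. For both genes the Antp RNAi libraries lay above the control libraries, at log2 fold changes of 0.22 ± 0.10 (gw) and 0.24 ± 0.10 (eIF4G1), and neither passed (adjusted p = 0.462 and 0.371, edgeR). Together these 2 genes made up 25.3% and 25.1% of all chromosome 4 gene counts in Antp RNAi and 24.1% and 23.0% in the control. Of the other RNA and translation genes, 4E-T, a partner of the cap-binding protein, had a log2 fold change of 0.09 ± 0.10, and Gyf was nearly equal in the 4 libraries, between 369 and 376 CPM.

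**Figure D3:**
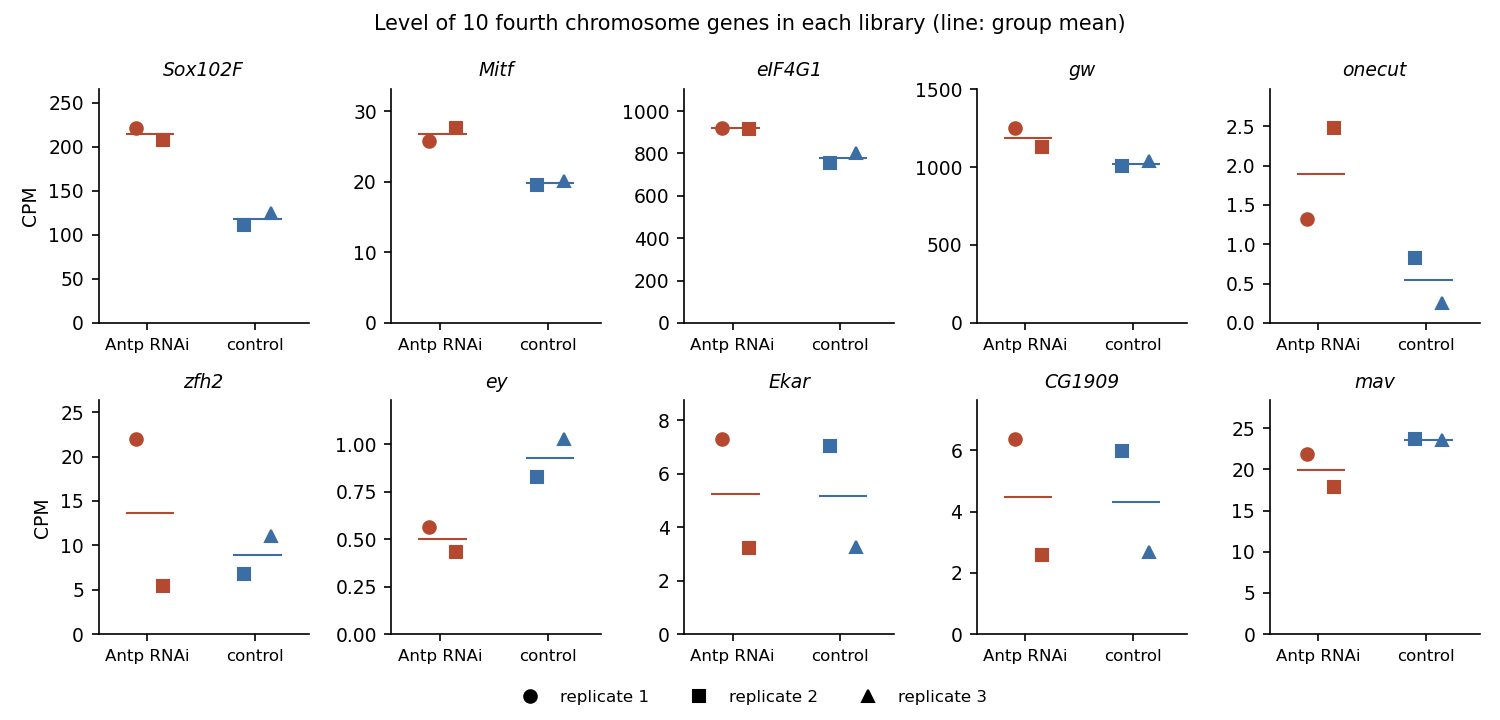
CPM (y axes, each starting at 0) in each library of Antp RNAi (left) and control (right) for 10 chromosome 4 genes. Symbols mark the replicate number and lines the group means. Sox102F is at 221 and 208 CPM in Antp RNAi and 111 and 125 CPM in the control, whereas zfh2, Ekar and CG1909 differ more between replicates of a group than between the groups.

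The metabolic, transport and repair genes had 4 fold changes above 0 and 2 below 0, with a median log2 fold change of 0.03 and no call. ND-49, a subunit of respiratory complex I, was second per kilobase at a log2 fold change of -0.08 ± 0.11. Rad23, a ubiquitin receptor of proteasomal degradation and nucleotide excision repair, was at 215 and 238 CPM in Antp RNAi and 219 and 234 CPM in the control. The calcium pump PMCA and the peroxisomal transporter ABCD had log2 fold changes of 0.11 and -0.00, PMCA counts being uncertain because 40.5% of its exon bases are shared with CG32850. The kinase, GTPase and cytoskeleton genes had 4 fold changes above 0 and 6 below 0, with a median of -0.02 and no call. Ank, the ankyrin that ties membrane proteins to the spectrin skeleton, was at 368 and 358 CPM in Antp RNAi and 324 and 391 CPM in the control. CaMKI (0.11), Dyrk3 (0.12), Zyx (zyxin, 0.01) and the small GTPase gene Arf102F (-0.02) all had log2 fold changes within their standard error or little more. RhoGAP102A and the kinesin gene Kif3C had at most 45 counts per library, with log2 fold changes of -0.41 ± 0.44 and -0.20 ± 0.59.

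The remaining 27 genes had no place in these groups. Of them 19 were tested, with 12 fold changes above 0, 7 below 0, a median of 0.08 and no call. CG31999 was the highest per kilobase, at 240 and 208 CPM in Antp RNAi, against 162 and 198 CPM in the control, and did not pass (log2 fold change 0.31 ± 0.13, adjusted p = 0.396, edgeR). yellow-h, of the yellow family, had 5.82 and 4.74 CPM in Antp RNAi and 3.69 and 3.45 CPM in the control (0.57 ± 0.23). The pseudogene CR43361 had 3.21 and 3.20 CPM in Antp RNAi, against 2.14 and 1.74 CPM in the control, but 92.5% of its bases lie under unc-13 on the opposite strand. CG33978 and CG32017 had log2 fold changes of 0.46 and -0.40, the last from 4 to 19 counts per library. Overlap matters for such values, as CG11077 shows: it shares 94.6% of its exon bases with the antisense gene asRNA:CR44031, and the pair had 763 and 764 counts in Antp RNAi replicate 1 and 1032 and 1034 counts in control replicate 2. Among the genes named above, bip2, Cals, sv, CG11155, CG32017, yellow-h, CG33978 and Zyx share exon bases with a neighbour too, and their counts are likewise uncertain. In all, 22 of the 76 genes share exon bases with another gene, and the 46 tested genes that share none had a median log2 fold change of 0.05.

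A coordinated difference between the 2 control libraries was seen among the chromosome 4 genes with at least 10 CPM. Of the 44 chromosome 4 genes with at least 10 CPM, 42 were higher in control replicate 3 than in control replicate 2, with Thd1 and mav as the exceptions. The median log2 ratio of control replicate 3 over replicate 2 was 0.17 for these genes, a 1.13-fold level, against 0.01 over all 6509 genes with at least 10 CPM, of which 54.4% were higher. The genes of the large arms had medians between -0.02 (X) and 0.03 (2L). The difference between the 2 controls was thus larger than the median log2 fold change between the groups for the same 44 genes, 0.07. It was present in 30 of 31 genes whose exons overlap no other gene (median 0.16). The other 10 genes of the chromosome at this level, left out above, were all higher in control replicate 3 as well (median 0.14). It did not extend to the 24 tested chromosome 4 genes under 10 CPM. Of these, 16 were lower in control replicate 3, with a median of -0.13, against -0.01 over all 3851 such genes. Over all 68 tested chromosome 4 genes the median was 0.09.

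Between the Antp RNAi libraries, 14 of the 44 genes were higher and 30 lower in replicate 2 than in replicate 1. Their median log2 ratio of replicate 2 over replicate 1 was -0.04, against 0.04 over all genes. Each Antp RNAi library can also be set against each control library, although these comparisons share libraries. Replicate 1 over control replicate 2 gave a median of 0.18 for the fourth chromosome genes, against -0.02 for all genes, and over control replicate 3 it gave 0.02, against -0.03. Replicate 2 over control replicate 2 gave 0.12, against 0.02, and over control replicate 3 it gave -0.02, against 0.01. The values above 0.1 were those that involved control replicate 2, but comparisons that share libraries cannot place the difference in 1 library. Against each gene's mean log2 level over all libraries, the 44 genes had median deviations of 0.08 and 0.01 in Antp RNAi replicates 1 and 2. In control replicates 2 and 3 these were -0.10 and 0.05.

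**Figure D4:**
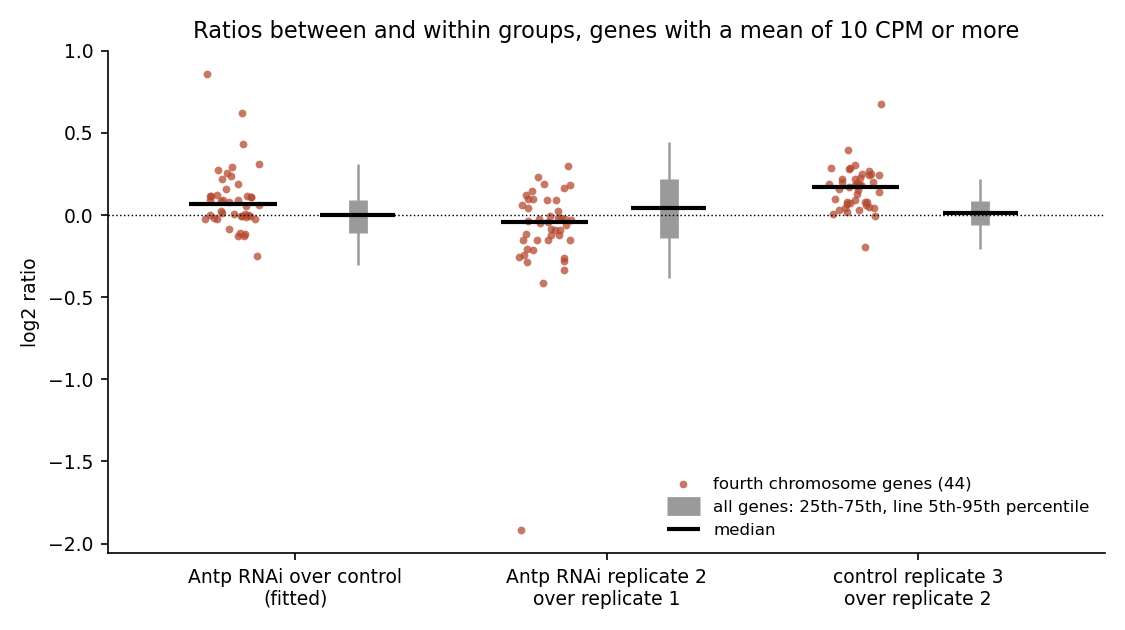
Log2 ratios (y axis) of the 44 chromosome 4 genes with at least 10 CPM (points, with the median as a line) and of all genes at that level (grey bars from the 25th to the 75th percentile, lines between the 5th and 95th, black median), for Antp RNAi over control, for Antp RNAi replicate 2 over replicate 1 and for control replicate 3 over replicate 2. In the control pair 42 of 44 points lie above 0 with a median of 0.17, against 0.07 between the groups.

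Other measured properties were set beside these ratios after they had been seen. The ends of the large arms next to the centromere were taken beyond 22 Mb on 2L and X and 23 Mb on 3L. On 2R and 3R they were taken below 5.4 Mb and 4.2 Mb. Their 103 genes of at least 10 CPM had a median log2 ratio of 0.11 for control replicate 3 over replicate 2. Of these, 80 were higher (77.7%, against 54.4% of all genes at that level). For Antp RNAi replicate 2 over replicate 1 their median was 0.09, with 71 higher (68.9%, against 56.1%). The 44 chromosome 4 genes had -0.04 there, with 14 higher. The median log2 fold change of the 103 genes between groups was -0.05. Known regulators of chromosome 4 chromatin differed little between the groups. None of 15 tested was called at an adjusted p under 0.05 (edgeR, against 2.58% of all genes), and their log2 fold changes ran between -0.20 and 0.18. Pof itself was at 41.7 and 44.0 CPM in Antp RNAi. In control replicates 2 and 3 it was at 44.0 and 48.7 CPM, higher in replicate 3 like most of the 44 chromosome 4 genes. The 15 regulators summed to 2579 and 2553 CPM in these 2 control libraries. The male dosage compensation RNA roX1 was at 577 and 581 CPM in Antp RNAi and at 517 and 491 CPM in control replicates 2 and 3. Likewise roX2 was at 41.0 and 31.6 CPM in Antp RNAi and at 35.1 and 36.7 CPM in these controls. Neither was called between the groups (adjusted p = 0.496 for roX1 and 0.987 for roX2, edgeR). The part of nearness to the centromere or of Pof in the difference between the control libraries was not tested.

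Exon length moved with the fold changes. The median exon length was 4356 bases for the tested chromosome 4 genes and 1971 bases for all genes tested. Across 10360 genes, which are not independent and share the 4 libraries, exon length had a Spearman correlation of 0.23 with the log2 fold change between groups and -0.32 with the ratio of Antp RNAi replicate 2 over replicate 1, but -0.08 with the ratio of control replicate 3 over replicate 2. Among genes with at least 3 kb of exon, the median log2 fold change was 0.09 for 49 chromosome 4 genes, against 0.06 for all 3108 genes of that length, so the distance between them was smaller than without regard to length. The ratio of control replicate 3 over replicate 2 kept its distance in such genes. Its median was 0.14 for the 49 chromosome 4 genes (37 higher), against -0.00 for the 3108 genes. With at least 10 CPM and 3 kb it was 0.19 for 32 chromosome 4 genes (31 higher), against -0.00 for all 2323 genes. The median log2 fold change between groups in these 32 and 2323 genes was 0.11 and 0.06. The part of exon length in the fold changes between groups was not tested.

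Along the chromosome the median log2 fold change was 0.10 for the 22 tested genes with the lowest coordinates, 0.03 for the next 23 and 0.01 for the last 23. These stretches overlapped widely in their quartiles, and no stretch stood apart from the rest.

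Among genes under 10 CPM, a pair chosen after their values were seen differed about as much within both groups. Ekar, a kainate-type glutamate receptor known from photoreceptors, had 7.29 and 3.22 CPM in Antp RNAi and 7.04 and 3.27 CPM in the control. CG1909 had 6.37 and 2.59 CPM in Antp RNAi and 5.98 and 2.68 CPM in the control. For both genes, Antp RNAi replicate 1 and control replicate 2 were high and the other libraries low, and the log2 fold changes were 0.03 and 0.05. Of the 24 tested chromosome 4 genes under 10 CPM, this pair included, 18 were higher in Antp RNAi replicate 1 than in replicate 2, against 58.5% of all 3851 such genes, and 16 were higher in control replicate 2 than in replicate 3, against 52.0%. The neuron and glia markers summed to 30.6 and 25.7 CPM in Antp RNAi and to 27.6 and 23.8 CPM in the control, and their part in these differences between replicates was not tested.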

How the data were processed

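The authors sorted GFP-positive cells, amplified full-length cDNA from total RNA and sequenced tagmented libraries without molecular identifiers, so intervals and floors cover counting error only. The deposited table holds raw whole-number counts per gene over exons. The submitters' processing notes name featureCounts, Subread and dm6, and the use of strand is not given in the sources used here. A second deposited table of the authors' own DESeq2 comparison (fold changes and p-values) was not used. Positions were checked against Ensembl release 115 (76 starts and 75 ends identical).

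Counts were scaled by TMM and tested with edgeR 4.0.16 (quasi-likelihood, two-sided, filterByExpr with a minimum count of 10) in R 4.3.3, with Benjamini-Hochberg adjustment over 10360 genes and calls at 0.001 and 0.05. CPM are on TMM-scaled library sizes, and ratios between libraries are of CPM + 0.5. Alternatives were DESeq2 1.42.0, limma-voom (limma 3.58.1), other scalings, filters and gene sets, and leaving out each library. The script was tested on simulated data. The fourth chromosome genes and the gene groups were chosen with earlier results of these data known. Genes named were those called, the 10 highest per kilobase, the 8 largest fold changes in each direction, up to 4 of each group, and textbook genes.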

Additional observations from a re-analysis of the deposited data

How the results depend on the processing

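Sox102F was called at an adjusted p under 0.05 in every alternative fit. The number of all genes called at an adjusted p under 0.001, 48 with edgeR, was 236 with DESeq2, 120 with at least 1 count as filter, 267 at an adjusted p under 0.05, and 151 to 240 leaving out 1 library each. The number of chromosome 4 genes called, 0, became 1 (Sox102F) with DESeq2, with at least 1 count as filter, and at an adjusted p under 0.05, and 1 with all genes on chromosome 4 (apolpp). It was 0 to 1 leaving out 1 library each, and 1 without Antp RNAi replicate 1 or without Antp RNAi replicate 2. The median log2 fold change of the chromosome was 0.04 to 0.08 under other tests, scalings and filters, 0.025 with all genes on chromosome 4, and 0.024 to 0.153 leaving out 1 library each. The log2 ratio of the shares was 0.04 to 0.18 leaving out 1 library each, and 0.12 on TMM-scaled library sizes, an alternative chosen after seeing the data.

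Of 452 alternative fold changes of 42 named genes, 392 kept direction and call, 4 (all of Sox102F) passed 0.001 where the reported fit did not, and 56, in 20 genes, changed sign. Of these 20 genes, only Actbeta and zfh2 were called at an adjusted p under 0.05 in any fit, Actbeta without Antp RNAi replicate 1 and zfh2 without Antp RNAi replicate 2 or without control replicate 3. ABCD was 0.010 with DESeq2, 0.0089 with median-of-ratios factors and 0.0036 with at least 1 count. Gyf was 0.015 with DESeq2, 0.013 with median-of-ratios factors, 0.0081 with at least 1 count and 0.0027 with a mean of at least 100 counts. Slip1 was 0.0095 with DESeq2, 0.0083 with median-of-ratios factors and 0.0029 with at least 1 count. bip2 was 0.0034 and 0.0021 with DESeq2 and median-of-ratios factors. With upper-quartile scaling and library totals, MED26 was -0.0088 and -0.0083, Rad23 -0.013 and -0.013, Zyx -0.0028 and -0.0036 and myo -0.015 and -0.014, and myo was -0.0041 with limma-voom. The causes were not tested.

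Leaving out 1 library each, log2 fold changes ran as follows. ABCD ran between -0.083 and 0.097, Actbeta between -6.99 and 0.83, Ank between -0.087 and 0.163 and Arf102F between -0.16 and 0.12. CG32017 ran between -1.45 and 0.52, Cals between -0.055 and 0.211, Gyf between -0.014 and 0.031 and Kif3C between -0.80 and 0.23. MED26 ran between -0.045 and 0.081, ND-49 between -0.189 and 0.029, Rad23 between -0.054 and 0.076 and Slip1 between -0.035 and 0.041. Zyx ran between -0.087 and 0.142, bip2 between -0.056 and 0.049, myo between -0.14 and 0.14 and pan between -0.20 and 0.15. sv ran between -0.67 and 0.70, toy between -0.91 and 0.80, unc-13 between -0.255 and 0.039 and zfh2 between -0.71 and 1.32. The lower value of Actbeta comes from a fit with 0 counts in the only Antp RNAi library and measures no size. Such fits leave 1 library in an arm, which is assumed to vary like the other group. Genes of few counts are limited by depth. No paired analysis was possible because replicate number 2 alone occurs in both Antp RNAi and control.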
